A study of Bos taurus with 8 samples.

Results

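Red cell transcripts were measured in lung, as the globin chains of haemoglobin and other genes of the erythroid lineage. The set named 10 genes: the globins HBA, HBB, HBG and HBM, the haem synthesis enzyme ALAS2, the chaperone AHSP, the membrane proteins SLC4A1 and EPB42, the nuclear regulator HEMGN and the transferrin receptor TFRC. Members were taken by symbol, through the transcript accession that the array gives for each probe. This found 18 probes for 9 of the 10 genes, out of 43653 probes and 11054 named genes on the array. No probe accession matched TFRC, and it is not analysed here. The lungs came from 8 Holstein calves, all labelled 4 days of age. The first group held 4 cloned calves that had respiratory failure and died by the age of 4 days, and the second 4 healthy, naturally conceived calves slaughtered at 4 days. The exact age of each clone at death and the cells the clones were made from are not given in the sources used here. Each animal had 1 array of the 1-colour Agilent type, in which brightness stands for transcript abundance.

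Haemoglobin is a tetramer of a pair of alpha-type and a pair of beta-type chains, each holding a haem group. In cattle HBA encodes the adult alpha chain and HBB the adult beta chain, while HBG encodes the gamma chain of fetal haemoglobin, which adult haemoglobin replaces after birth. Mature red cells have no nucleus, and the globin RNA of the red cell lineage is held by young red cells (reticulocytes) and their nucleated precursors. Whether other lung cells also held globin RNA was not tested.

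All values below are log2 processed signals relative to the 75th percentile of the same array, and differences are clone minus normal. A probe counted as measured if at least 4 of the 8 arrays had it well above background, which held for 12 of the 18 probes, from 8 genes. HEMGN did not pass this filter. Between 78.8% and 83.5% of spots per array were well above background and no spot was saturated. Each group had a slide of its own, so slide and group cannot be told apart. All 10 spike-in controls were higher on the clone arrays relative to the 75th percentile, by a median of 0.67. As a check of the tissue, all 8 lung epithelial markers were measured, with a summed log2 level of 8.30 to 8.98 in clones and 8.52 to 8.69 in normal animals. The Y-linked USP9Y and DDX3Y were detected above background in 3 of the 4 clones, clone 1 being the exception, and in 0 of the 4 normal animals. Y-linked signal thus goes largely with group, and the part of sex in the group differences was not tested. The design cannot tell fewer red cells from less RNA per red cell, nor red cell RNA from globin RNA of other lung cells.

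The globins and ALAS2 varied widely from animal to animal, and 0 of the 12 measured probes differed between the groups by the test (0.177% of all 35636 measured probes did, 0.0477% higher and 0.129% lower in clones). HBA, the alpha chain, stood at 7.23, 4.10, 5.48 and 4.57 in clones 1 to 4 and at 4.53, 3.75, 5.60 and 4.20 in normal animals 1 to 4. Clone 1 was the highest, normal animal 3 came next and normal animal 2 was the lowest, so the groups overlapped. The group means were 5.34 ± 1.38 in clones and 4.52 ± 0.79 in normal animals (SD, n = 4 each). They differed by 0.83 (95% interval -0.72 to 2.37; limma adjusted p = 0.660). Without clone 1 the difference was 0.20.

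HBB, the adult beta chain, was also highest in clone 1, with a difference near 0 and a wide interval. It stood at 4.07, -0.57, 1.04 and 0.83 in clones 1 to 4 and at 1.504, -0.20, 2.63 and 1.28 in normal animals 1 to 4. Clones 2, 3 and 4 were all below the mean of the normal animals, and clone 1 was above every other calf. The difference was 0.0416 (95% interval -2.15 to 2.23; limma adjusted p = 0.990), and it was -0.87 without clone 1.

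HBG, the fetal beta-type chain, had 3 probes. On the brightest, A_73_P441566, HBG stood at 7.03, 3.20, 4.33 and 3.72 in clones 1 to 4 and at 3.41, 2.38, 4.86 and 3.13 in normal animals 1 to 4. Clone 1 was again the highest and normal animal 3 was above clones 2, 3 and 4. The difference was 1.12 on this probe (95% interval -0.80 to 3.05; limma adjusted p = 0.626) and 1.49 and 1.499 on the other probes (adjusted p = 0.465 and 0.459). On those probes all 4 clones were above the mean of the normal animals, and the groups still overlapped. Without clone 1 the 3 differences were 0.30, 0.76 and 0.77.

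HBM is the mu-globin of the alpha-globin cluster. Its brighter probe stood at -0.96, -3.31, -2.77 and -2.60 in clones 1 to 4 and at -2.18, -3.46, -2.09 and -2.73 in normal animals 1 to 4. The difference was 0.20 (95% interval -0.97 to 1.38; limma adjusted p = 0.907) and 0.0257 on the second probe. Clone 1 was the only clone above every normal animal, and without it the difference on the brighter probe was -0.28.

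ALAS2, the X-linked enzyme that opens haem synthesis in red cell precursors, stood at -0.44, -4.30, -1.83 and -3.42 in clones 1 to 4 and at -3.92, -4.56, -2.02 and -4.49 in normal animals 1 to 4. Clones 1 and 3 and normal animal 3 were high and the other 5 calves were low. The difference was 1.25 (95% interval -0.76 to 3.26; limma adjusted p = 0.601), and 0.56 without clone 1.

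**Figure D1:**
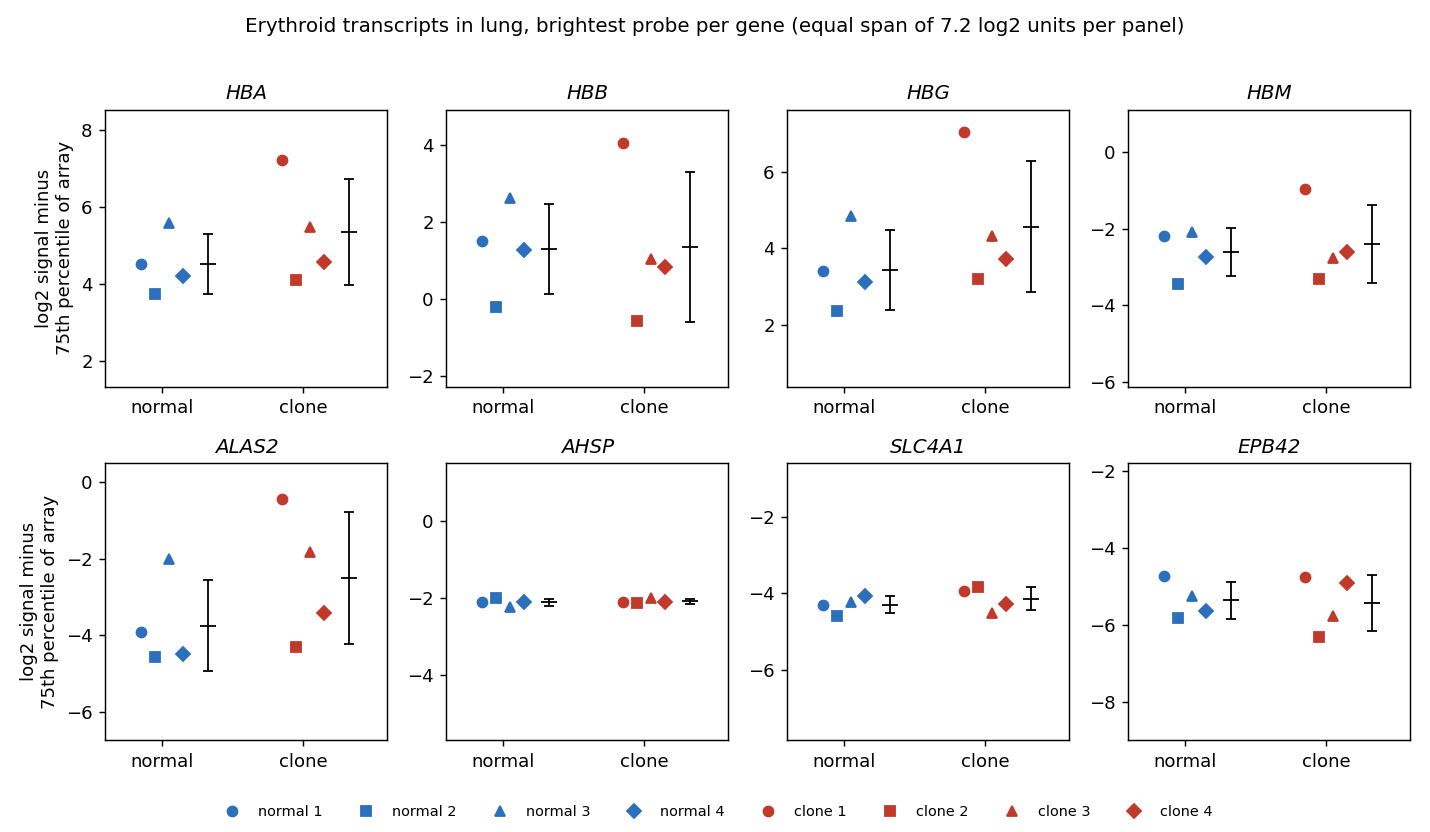
Level of the brightest probe of each of 8 erythroid genes, as log2 signal minus the 75th percentile of the array, in 4 normal (blue) and 4 cloned (red) calves; each marker is 1 animal, the dash and bar are the mean and SD, and all panels have the same span. The globins and ALAS2 spread widely with clone 1 at the top (HBA 7.23), while AHSP stays near -2.1 in every calf.

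The other members spread less between calves or were measured on few arrays. AHSP, the chaperone that binds free alpha chains, had a brighter probe that stayed between -2.23 and -1.995 over all 8 calves. Only 0.174% of measured probes had a smaller range, and the range of HBA over the same calves was 3.48. The dimmer AHSP probe was less flat, with a range of 0.83, and 21.3% of measured probes had a smaller range. Its SD in the normal animals was 0.39, and 85.0% of measured probes had a smaller one. The differences of the AHSP probes were 0.0255 and -0.0966 (limma adjusted p = 0.964 and 0.902). SLC4A1, the chloride-bicarbonate exchanger called band 3, had 1 of 4 probes measured. This probe lay between -4.51 and -3.84 in clones and between -4.59 and -4.06 in normal animals, a difference of 0.16 (limma adjusted p = 0.799). Of its other probes, 1 was well above background on 3 of 8 arrays and the remaining ones on 0. EPB42, the membrane skeleton protein 4.2, had 1 of 3 probes measured, at -5.44 ± 0.74 in clones and -5.36 ± 0.48 in normal animals (SD, n = 4 each), a difference of -0.0773 (limma adjusted p = 0.958). The single HEMGN probe was well above background in 1 normal animal and in 0 of 4 clones.

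The spread among healthy calves was itself wide for the globins. The SD over the 4 normal animals was 0.79 for HBA, 1.16 for HBB, 1.04 for HBG and 1.19 for ALAS2, beside a median of 0.17 over all measured probes. Of all measured probes 96.9%, 99.0%, 98.6% and 99.1% had a smaller SD in the normal animals than these. In the clones the SD of the same transcripts was 1.38, 1.95, 1.71 and 1.71, beside a median of 0.53. From the lowest to the highest calf HBG differed 25.2-fold, HBB 24.9-fold, ALAS2 17.4-fold and HBA 11.2-fold.

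Of the 12 measured probes 10 had a positive and 2 a negative difference, and centred on the spike-in controls 5 were positive (HBA, HBG and ALAS2) and 7 negative. That centring moved the median of all measured probes from -0.0224 to -0.60. The brightest probes of the 8 genes had a median of 0.18, beside -0.0168 over all 9867 named genes. Of those genes, 4768 had a positive and 5099 a negative difference. The members' median was 0.0624 without clone 1, 0.0607 without normal animal 2 and 0.59 without clone 2, and -0.40 when centred on the spike-in controls. By limma 0 of the 12 had an adjusted p under 0.05 and 0 had an unadjusted p under 0.05. Over all measured probes 0.177% were called and 13.2% had an unadjusted p under 0.05. In 0 of the 12 were the groups free of overlap, beside 10.1% of all measured probes.

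**Figure D2:**
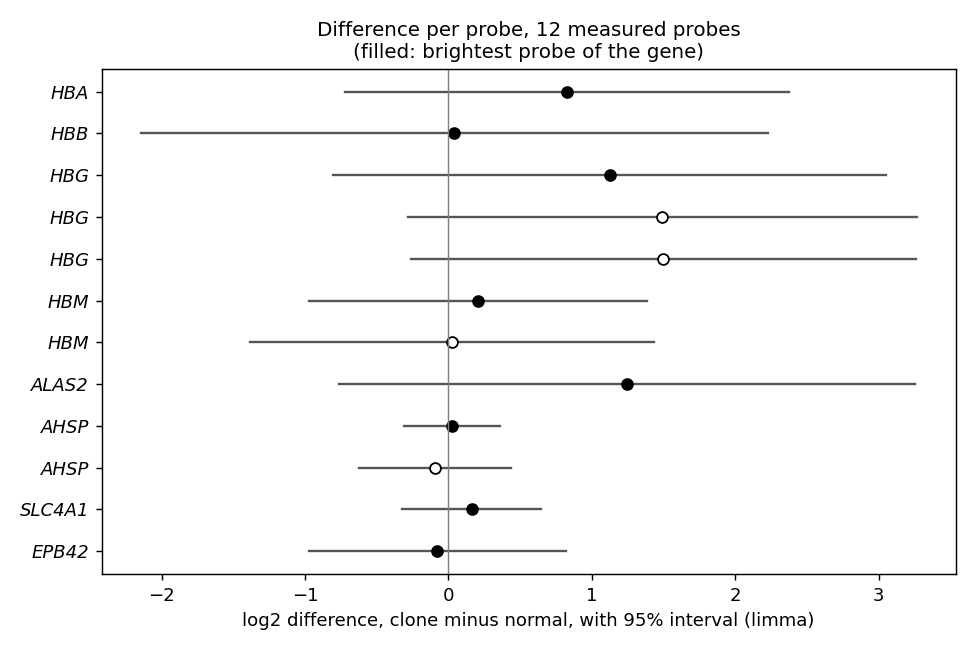
Log2 difference, clone minus normal, for the 12 measured probes of 8 erythroid genes, with the 95% interval of the limma fit (n = 4 each); filled points are the brightest probe of each gene. All 12 intervals include 0, and those of AHSP and SLC4A1 are narrower than those of the globins and ALAS2.

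The balance between fetal and adult globin was compared within each calf, as the log2 signal of HBG minus that of HBB. A constant that centres an array cancels in this difference, but an effect of slide on a single probe does not. Probes of different genes differ in brightness, so the value is not a ratio of molecules and is read only between calves. HBG minus HBB was higher in every clone than in every normal animal. Clones 1 to 4 had values of 2.96, 3.77, 3.28 and 2.88, and normal animals 1 to 4 of 1.91, 2.58, 2.23 and 1.85. The means were 3.22 ± 0.40 in clones and 2.14 ± 0.34 in normal animals (SD, n = 4 each), a difference of 1.08 or 2.12-fold. The exact 2-sided permutation test gave p = 0.0286, the smallest value that 4 against 4 allows. Among all measured probes taken singly, 10.1% had groups free of overlap, and no such share was computed for differences between probes. Without clone 2 the difference was 0.90 and p = 0.0571 by the same exact permutation test. Clone 1 and normal animal 3, which had the most globin signal in their groups, were not at the ends of the ratio.

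Calves with a like HBB signal showed the same order, which restates the separation above and is not a further test of it. Clone 2 and normal animal 2 had the lowest HBB of their groups (-0.57 and -0.20), and their HBG stood at 3.20 and 2.38. Clone 3 and normal animal 4 stood at 1.04 and 1.28 for HBB, and at 4.33 and 3.13 for HBG. Within both groups the calf with the lowest HBB, animal 2, had the highest HBG minus HBB. As HBB is the subtracted term, this is partly built in.

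**Figure D3:**
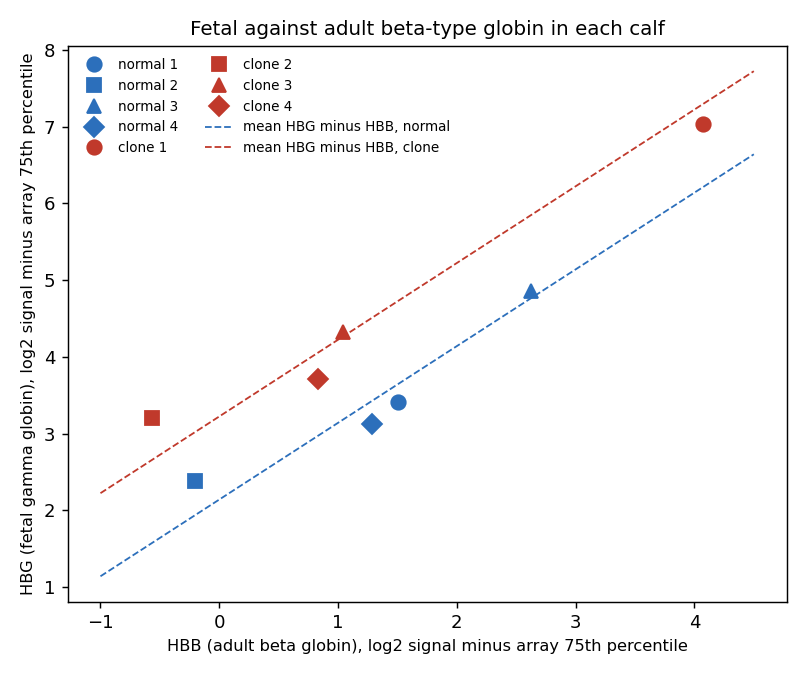
HBG (fetal beta-type globin) against HBB (adult) in each calf, both as log2 signal minus the 75th percentile of the array; dashed lines mark the mean of HBG minus HBB in normal animals (2.14) and clones (3.22). Every clone lies above every normal animal in the vertical distance from HBB.

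All 3 HBG probes gave this separation. With the other probes the difference in HBG minus HBB was 1.45 and 1.46 (exact permutation p = 0.0286 for each, n = 4 each). The gap between the lowest clone and the highest normal animal was 0.30, 0.19 and 0.11 on the 3 probes. The 3 probes share 1 target transcript and 1 HBB probe, so they are not independent. The beta-type globins are alike in sequence, and how far the HBB probe also binds HBG transcripts was not tested.

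The beta-type chains were also set against HBA, the alpha chain that fetal and adult haemoglobin share. For HBB minus HBA clones 1 to 4 had values of -3.16, -4.67, -4.44 and -3.73, and normal animals 1 to 4 of -3.03, -3.95, -2.97 and -2.91. The difference in means was -0.78 (exact permutation p = 0.143, n = 4 each), and clones 2 and 3 were below every normal animal. HBG minus HBA differed by 0.30 on the brightest HBG probe with overlap between groups (exact permutation p = 0.286, n = 4 each). On the other HBG probes it differed by 0.67 on each, with every clone above every normal animal by 0.0595 and 0.0250 (exact permutation p = 0.0286 each, n = 4 each). Whether HBG minus HBA separated the groups thus differed between HBG probes.

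HBE4, an embryonic epsilon-type chain of the beta-globin cluster, showed a similar balance with HBB. Its dim probe followed the brightest HBG probe at Pearson's r of 0.995 over the 8 calves. How far the HBE4 probe also binds HBG transcripts was not tested. HBE4 itself stood at 0.47, -3.97, -2.70 and -3.46 in clones 1 to 4 and at -3.72, -4.42, -2.07 and -4.00 in normal animals 1 to 4. Its level differed by 1.14 (95% interval -1.02 to 3.30; limma adjusted p = 0.665), and by 0.17 without clone 1. HBE4 minus HBB differed by 1.09 (exact permutation p = 0.0571, n = 4 each), and 3 of 4 clones were above every normal animal. ALAS2 minus HBB differed by 1.21 (exact permutation p = 0.0571, n = 4 each), again with 3 of 4 clones above every normal animal. HBM minus HBB differed by 0.16 (exact permutation p = 0.800, n = 4 each). Over the 9 balances computed, none passed after Benjamini-Hochberg adjustment of the exact permutation p. The lowest adjusted p was 0.171, shared by the balances of HBG, HBE4 and ALAS2 with HBB. As no exact permutation p can be below 0.0286 here, a single balance could not pass over 9 pairs by itself. The 8 pairs other than HBG minus HBB were chosen after the values were seen.

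**Figure D4:**
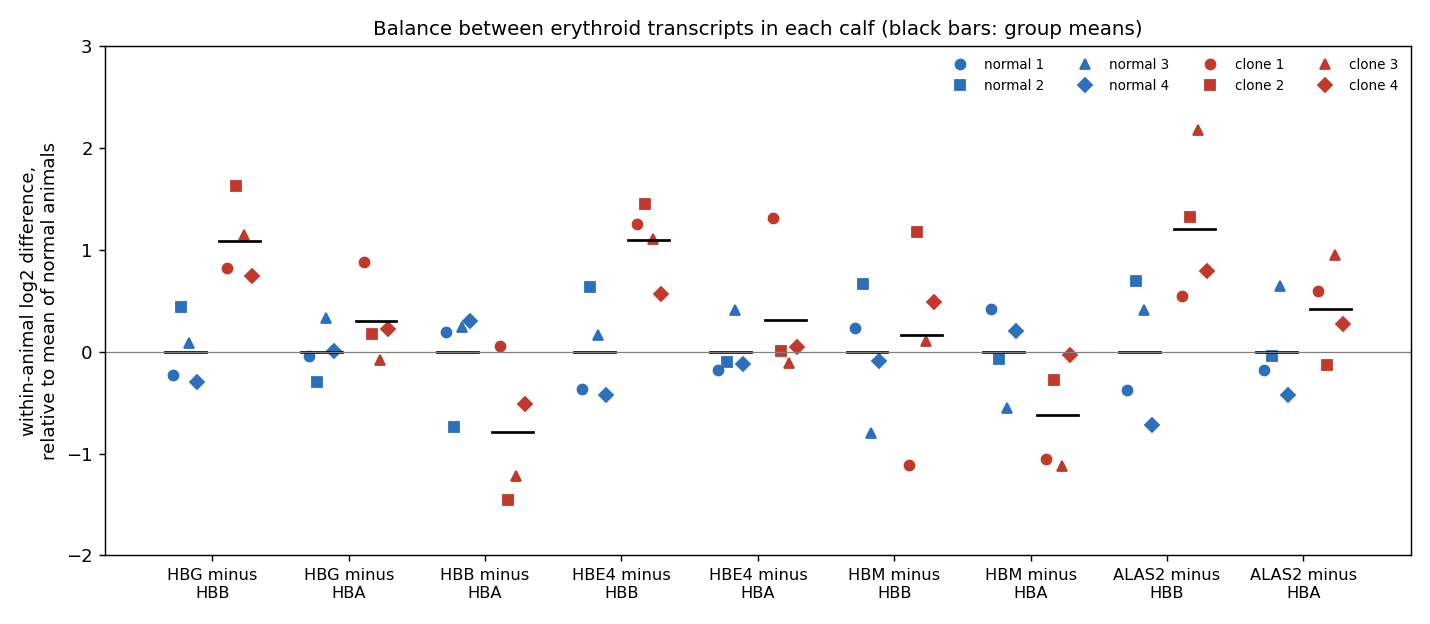
Within-animal log2 difference between pairs of erythroid transcripts, shown relative to the mean of the normal animals, in 4 normal (blue) and 4 cloned (red) calves; black bars are group means. The clones and normal animals are apart in HBG minus HBB, where the group means differ by 1.08, and overlap in the other 8 pairs.

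Across the 8 calves HBG and ALAS2 varied with HBA, and the relation of AHSP with HBA did not pass the test. With normexp background correction and the 75th percentile the ALAS2 relation did not pass either (r = 0.576, exact permutation p adjusted to 0.214). Pearson's r with HBA was 0.991 for HBG (Spearman's rho 0.976) and 0.976 for ALAS2 (rho 0.952), with exact permutation p of 4.96e-05 and 1.98e-04 for r and 3.97e-04 and 0.00114 for rho. After adjustment over 7 relations the p of r was 3.47e-04 and 6.94e-04, and that of rho 0.00278 and 0.00399. Without clone 1 and normal animal 3, the calves farthest from the median of HBA, r was 0.958 and 0.964 over 6 calves. For HBB r was 0.895 (rho 0.786, exact permutation p = 0.00320 and 0.0279, adjusted 0.00747 and 0.0489) and for HBM 0.890 (rho 0.833, exact permutation p = 0.00466 and 0.0154, adjusted 0.00816 and 0.0359). Without those calves r was 0.547 and 0.519 and neither relation passed (exact permutation p = 0.279 and 0.289, both adjusted to 0.506). Leaving out clone 1 alone gave r of 0.743 and 0.683 with adjusted p of 0.122 and 0.148 by the same exact permutation test, and leaving out normal animal 3 alone gave 0.892 and 0.884, both past the threshold. As deviations from the group means over the 6 remaining calves, r was 0.836 for HBB and 0.682 for HBM. AHSP had r = -0.21 (rho -0.26, exact permutation p = 0.601 and 0.536, adjusted 0.601 and 0.626), SLC4A1 0.267 (rho 0.190, exact permutation p = 0.538 and 0.665, adjusted 0.601 and 0.665) and EPB42 0.510 (rho 0.595, exact permutation p = 0.201 and 0.132, adjusted 0.282 and 0.185). Without those calves their r was 0.326, -0.27 and 0.228. Each group and slide holds 4 calves, too few for a correlation within it. Taken as deviations from the group means, r with HBA was 0.989 for HBG, 0.973 for ALAS2, 0.966 for HBB and 0.916 for HBM.

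**Figure D5:**
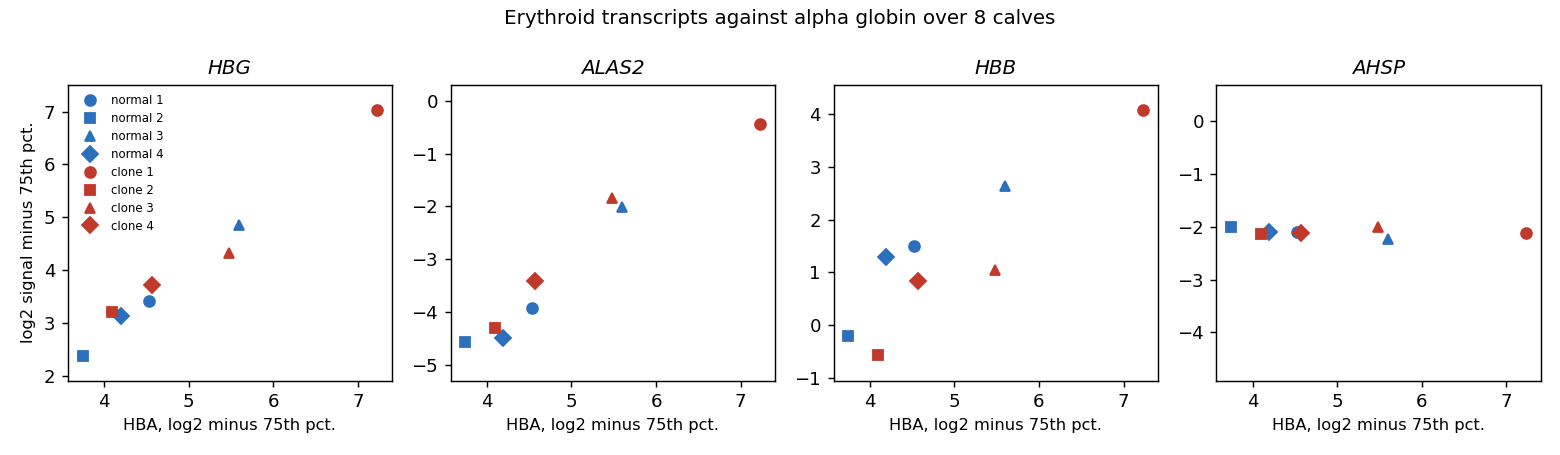
HBG, ALAS2, HBB and AHSP against HBA in 8 calves, each as log2 signal minus the 75th percentile of the array, with equal vertical spans. HBG and ALAS2 follow HBA (r = 0.991 and 0.976), HBB follows it with clones 2, 3 and 4 lower than normal calves of like HBA, and AHSP is flat on its brighter probe.

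Among 9625 other named genes, the one most like HBA, HBG and ALAS2 over the 8 arrays was in each case HBE4, with Pearson's r of 0.988, 0.995 and 0.947. After it came LRP8, a lipoprotein receptor, the zinc transporter SLC39A7, the galectin LGALS3 and the amino acid transporter SLC38A5 for HBA (r from 0.950 to 0.952). For HBG they were the collagen chaperone SERPINH1, the chaperonin subunit CCT4, ZYG11B and again SLC38A5 (r from 0.941 to 0.955). For ALAS2 they were IL1RAP, UCK2, GAS7 and ALOX15 (r from 0.917 to 0.931). ALOX15, the lipoxygenase first known from reticulocytes and also made by some leukocytes, stood at 5.16, -3.20, 2.10 and -2.40 in clones 1 to 4 and at -1.84, -1.88, 2.33 and -0.46 in normal animals 1 to 4. Clones 1 and 3 and normal animal 3 were the highest calves for ALOX15, as they were for ALAS2. These likenesses are descriptions over 8 arrays, to which clone 1 contributes most, and for HBE4 binding of HBG transcripts by its probe was not tested.

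Other globins were few on the array. Of 8 such genes 6 had a probe and 5 were measured. All 5 had a positive difference with a median of 0.41, which was -0.17 when centred on the spike-in controls. Over all named genes 4768 were positive and 5099 negative. By limma 0 were called and 1, MB, had an unadjusted p under 0.05, beside 13.2% of all measured probes. HBQ1, the theta chain, had a brighter probe between -1.14 and -0.86 over all 8 calves. On its other probe every clone was above every normal animal, a difference of 0.42 (limma adjusted p = 0.351). Groups were free of overlap in 10.1% of all measured probes. HBE1 differed by 0.13. HBE2 was well above background in 1 normal animal and in 0 of 4 clones. Myoglobin (MB), the oxygen store of muscle, differed by 1.03 on its brighter probe (limma adjusted p = 0.357) and by -0.32 on the dimmer one. On the brighter probe clone 1 stood at -5.02, below every normal animal, and clones 2, 3 and 4 stood between -3.30 and -2.99, above every normal animal. NGB, neuroglobin, differed by 0.41 (limma adjusted p = 0.697).

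Haem synthesis genes other than ALAS2 went both ways. Of 10 measured genes 5 had a positive and 5 a negative difference, with a median of 0.13 that was -0.00132 without clone 4, 0.0563 without clone 2 and 0.22 without clone 1. By limma 0 were called and 2, ALAS1 and PPOX, had an unadjusted p under 0.05, beside 13.2% of all measured probes. ALAS1, the housekeeping counterpart of ALAS2, stood at 3.18, 3.12, 3.65 and 3.35 in clones 1 to 4 and at 4.41, 4.43, 4.01 and 4.52 in normal animals 1 to 4. Every clone was below every normal animal on this probe, as on its second. Groups were free of overlap in 10.1% of all measured probes. The differences were -1.01 and -1.14 (limma adjusted p = 0.105 and 0.0748), neither past the threshold. PPOX, the enzyme before the last step, differed by 0.65 (limma adjusted p = 0.213) with all 3 probes higher in every clone than in every normal animal.

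Transcription factors and receptors of the lineage were also mixed, with 5 positive and 6 negative of 11 measured, and a median of -0.0240. By limma 0 were called and 3, NFE2, MYB and GATA2, had an unadjusted p under 0.05, beside 13.2% of all measured probes. NFE2, a factor of erythroid cells, megakaryocytes and neutrophils, stood at 0.76, -0.99, -0.54 and -0.65 in clones 1 to 4 and at 1.645, 1.653, 1.19 and 1.79 in normal animals 1 to 4. Its difference of -1.93 did not pass (limma adjusted p = 0.101), and clone 1, the calf with the most globin signal, was nearest to the normal animals. MYB, a factor of blood progenitors, differed by -1.49 (limma adjusted p = 0.183) and GATA2, a factor of blood progenitors and endothelium, by -0.99 (limma adjusted p = 0.265). KLF1, the erythroid factor of beta-globin genes, was well above background on 3 of 8 arrays and was not tested. BCL11A, a repressor of fetal globin in human red cells, differed by 0.73 on its brighter probe and 0.16 on the other (limma adjusted p = 0.708 and 0.885), with clones on both sides of the normal animals.

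Of 12 measured genes of the red cell membrane and skeleton 6 had a positive and 6 a negative difference (median 0.00103). By limma 0 were called and 2 had an unadjusted p under 0.05, SLC2A1 and SLC29A1, beside 13.2% of all measured probes. The glucose transporter SLC2A1, which many tissues share, differed by 1.27 (limma adjusted p = 0.141), the nucleoside transporter SLC29A1 by -0.65 (limma adjusted p = 0.236) and CD47 by -0.38 (limma adjusted p = 0.538). Of 14 red cell enzymes and late maturation genes 7 were positive and 7 negative (median 0.00484). By limma 0 were called and 1 had an unadjusted p under 0.05, BNIP3L, beside the same 13.2%. BNIP3L, which removes mitochondria from reticulocytes and acts in other cells too, differed by 0.94 (limma adjusted p = 0.203), with every clone above every normal animal. Groups were free of overlap in 10.1% of all measured probes. PRDX2, a peroxide-removing enzyme of red cells, differed by 0.30 (limma adjusted p = 0.471).

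Iron and haem handling was measured through 11 and 9 genes. By limma 0 of either list were called, and 3 and 0 had an unadjusted p under 0.05, beside 13.2% of all measured probes. Of the iron genes 6 were positive and 5 negative (median 0.16, or -0.0801 without clone 1). SLC40A1, the iron exporter ferroportin, stood at 2.28, 3.77, 2.40 and 3.87 in clones 1 to 4 and between 4.14 and 4.69 in normal animals, a difference of -1.26 (limma adjusted p = 0.238). The iron carrier transferrin (TF) differed by 0.76 and lactoferrin (LTF) by 1.57 (limma adjusted p = 0.280 and 0.325). Among genes that scavenge haemoglobin and haem, 5 were positive and 4 negative (median 0.0157). Haptoglobin (HP), which binds free haemoglobin, differed by -2.26 (limma adjusted p = 0.398), its macrophage receptor CD163 by -1.83 (limma adjusted p = 0.443) and the haem-degrading HMOX1 by -1.20 (limma adjusted p = 0.484). CD163 stood at 1.70 and 0.32 in clones 1 and 3, and at -2.42 and -2.64 in clones 2 and 4, so that clones 2, 3 and 4 were below every normal animal. HMOX1 likewise stood at 5.43 and 5.23 in clones 1 and 3, and at 2.74 and 2.91 in clones 2 and 4.

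Some summed levels of markers of other blood cells were highest in clone 1, as the globins were, but not all markers behind the sums were. The summed level of the 4 measured platelet markers of 11 in clone 1 reached 1.93, against 0.18 to 1.08 in the other clones and 0.31 to 1.03 in normal animals. That of 9 measured neutrophil markers of 10 was 6.84 in clone 1, 4.14 to 5.23 in the other clones and 5.14 to 5.64 in normal animals. That of 3 measured B cell markers of 5 was 3.00 in clone 1 and at most 0.81 in the other 7 calves. A sum mostly follows its brightest genes, which in clone 1 were PF4 (1.79), S100A12 (6.36) and JCHAIN (2.85). Relative to the normal mean, the median marker in clone 1 was at -0.51 for platelets, -0.51 for neutrophils and 1.75 for B cells. ITGA2B stood at -1.66 and CD79A at -0.50 in clone 1, both below every normal animal. Clone 1 was also the lowest calf in the summed level of 6 measured endothelial markers of 7, at 5.21 beside 6.60 to 7.84 in the other clones and 6.57 to 6.74 in normal animals. Of these lists 1 platelet, 2 neutrophil, 2 B cell and 2 endothelial markers had a positive difference and 3, 7, 1 and 4 a negative one. All 6 measured T cell markers of 6 summed to 3.64 to 4.37 in clones and 3.93 to 4.26 in normal animals, and 5 measured macrophage markers of 8 to 5.75 to 7.75 and 7.42 to 8.03. All 5 macrophage markers and 5 of the T cell markers had a negative difference. Over all named genes 4768 were positive and 5099 negative. The 7 measured proliferation markers of 10 all had a positive difference, with a median of 2.21 and summed levels of 2.16 to 3.94 in clones and 1.17 to 1.67 in normal animals. Their part in the globin values was not tested.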

How the data were processed

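Lung RNA of 8 calves was measured on 1 array each, and the titles gave each animal's group and number. The deposited intensity of each spot is, per the file headers, Agilent Feature Extraction's processed signal, which is background-subtracted and not normalized between arrays; the submitters' processing notes name version 10.7. The authors' deposited table of log2 values, with columns of nearly the same distribution (75th percentile 10.54), correlated with the log2 intensity of the matching array at r of at least 0.9995; the normalization behind it was not stated in the labels or headers. It served only as an alternative.

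Control spots and between 2 and 21 outlier spots per array were left out. From log2 intensity the 75th percentile of the array was subtracted, and spots of the same probe were averaged. A probe was measured when well above background on at least 4 of 8 arrays (35636 of 43653). Names came from matching accessions to RefSeq genes on ARS-UCD2.0. Of all probes 23492 had a symbol and 20161 had none. No sequences are shown. Clones were tested against normal animals using limma 3.58.1 under R 4.3.3 (lmFit and eBayes, 2-sided, Benjamini-Hochberg over all measured probes, threshold 0.05). The exact permutation test ran over all 70 regroupings. Nothing in the labels beyond their numbers ties clones to normal animals. On simulated data of 35590 probes, the comparison recovered 20.0%, 60.0% and 74.3% of log2 changes of 1, 2 and 3, with 10 false calls. The simulated noise had the same SD in both groups, and the changed probes were drawn at random. These shares therefore do not hold for the globins and ALAS2, whose SDs were larger than those of most probes.

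Every member was named, with the genes of the 3 smallest p in each list and the 5 genes most correlated with ALAS2 and with HBA and HBG, the brightest measured globins; HBE1, HBE2, HBQ1, KLF1, BCL11A, USP9Y and DDX3Y were named after their values were seen. A few genes that this rule would name are not reported here. The members and lists were chosen with earlier results of these data known. Alternatives covered background correction, centring, normalization, filters, the variance model, the replicate block and each animal left out. Nothing beyond separate titles states how RNA samples were drawn, so p-values measure the spread between these samples.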

Additional observations from a re-analysis of the deposited data

Results flagged for a closer look

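Of 44 group-wise checks on the erythroid probes and balances, 4 found 1 calf far from the other 3 of its group, by the share of the group's range that lies between that calf and its neighbour (limit 0.83); chance gives about 1 in 20. In AHSP clone 3 was the highest clone with a share of 0.886, although the clones spanned only -2.13 to -1.995. In HBB minus HBA normal animal 2 was the lowest normal animal with a share of 0.893, at -3.95 beside -3.03 to -2.91. In HBE4 minus HBA clone 1 was the highest clone with a share of 0.886, at -6.76 beside -8.19 to -8.02. In the same balance normal animal 3 was the highest normal animal with a share of 0.863, at -7.66 beside -8.25 to -8.17.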

How the results depend on the processing

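Counts of called probes depended on the processing, and the erythroid probes were not called under any setting run. Against 63 called probes, there were 0 with normexp background correction and the 75th percentile (2282 had an unadjusted limma p under 0.05 there), 25 with normexp and quantile normalization, 5259 centred on the spike-in controls, 17 with probes above background on all arrays, 146 with a robust variance trend, 11452 with array weights and 654 without clone 1 and normal animal 3, a pair chosen after seeing the data. The fit with the replicate block gave 13. Leaving out 1 animal gave 17 to 2565, the latter without clone 1. Normexp ran on median signals, and the planned version on mean signals was not run. HBA turned to -0.0304 with array weights. HBB turned to -0.0155 with quantile normalization and with the authors' deposited table, -0.54 with the spike-in controls, -1.10 with array weights, -0.43 without clone 1 and normal animal 3 and between -0.87 and 0.68 with 1 animal left out. With normexp and the 75th percentile, the spike-in controls, array weights and both animals left out, in that order, the HBM probes turned to -0.23, -0.38, -0.28 and -0.10 and to -0.56, -0.55, -0.66 and -0.44, and the brighter AHSP probe to -0.31, -0.56, -0.0061 and -0.0056. With 1 animal left out these probes ranged from -0.28 to 0.50, -0.57 to 0.49 and -0.0133 to 0.0593. The second AHSP probe was 0.0421 with array weights (-0.22 to 0.0532 with 1 animal left out), and the mean of both AHSP probes was -0.0356. SLC4A1 turned to -0.62 with normexp and the 75th percentile and -0.42 with the spike-in controls. EPB42 turned to 0.0125 with quantile normalization, 0.0369 with normexp and quantile, 0.0127 with the authors' deposited table and -0.30 to 0.22 with 1 animal left out. HBG and ALAS2 kept a positive sign under every setting run, but not their size. With array weights the brightest HBG probe was at 0.17, the other HBG probes at 0.64 and 0.68 and ALAS2 at 0.15, and ALAS2 was at 0.16 with normexp and the 75th percentile. HBG minus HBB lay between 0.93 and 1.33 under the other settings, and between 0.90 and 1.23 with 1 animal left out. It had an exact permutation p of 0.125 at 1.08 with the replicate block and 0.1 at 1.20 without clone 1 and normal animal 3, the smallest values those designs allow. The replicate numbers were not taken as pairs in the main fit. The deviations of same-numbered calves correlated at 0.0915, 0.0991, -0.20 and -0.0987. For clones 1 and 2, but not 3 and 4, the same-numbered normal calf had the highest correlation. Centred on the spike-in controls, list medians were -0.40 (members), -0.17 (other globins), -0.45 (haem synthesis), -0.60 (transcription factors), -0.58 (membrane), -0.58 (enzymes), -0.42 (iron) and -0.56 (scavenging), and the iron median was -0.10 with quantile normalization. With 1 animal left out the medians ranged from 0.0607 to 0.59 (members), 0.17 to 0.73 (other globins), -0.00132 to 0.22 (haem synthesis), -0.17 to 0.14 (transcription factors), -0.11 to 0.0748 (membrane), -0.0534 to 0.14 (enzymes), -0.0801 to 0.29 (iron) and -0.11 to 0.0191 (scavenging). The correlation of AHSP with HBA was 0.0703 with quantile normalization, 0.279 with normexp and quantile, 0.110 with the spike-in controls and 0.0756 with the authors' deposited table. With normexp and the 75th percentile the correlations were 0.379 for HBM and 0.576 for ALAS2, neither of which passed the threshold. They were -0.55 for SLC4A1 and -0.51 for EPB42, and with normexp and quantile 0.733 for EPB42. The EPB42 relation passed the threshold in 1 of the settings, where the lowest adjusted exact permutation p was 0.0468. With 1 animal left out the correlations ranged from 0.743 to 0.931 for HBB, 0.683 to 0.942 for HBM and -0.19 to 0.56 for SLC4A1. The cause of these changes was not tested.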
